A study of Mus musculus with 12 samples.

Results

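Cytochrome P450 genes (gene symbols that begin with Cyp and a digit) were followed in hearts of Balb/c mice given a compound that the labels call DMA, an abbreviation they do not expand. They were taken from the platform annotation as all probes with a single such symbol, with pseudogene symbols left out, and each gene was read from its brightest probe. This gave 69 genes, on 80 probes, of 18069 genes with a single-symbol probe. The 4 groups, of 3 arrays each, were DMA hearts 24 h after gavage of 30 mg/kg body weight, DMSO hearts at 24 h, DMA hearts at 48 h and DMSO hearts at 48 h; DMSO was the vehicle. All groups were myocardium of the same strain, and the labels used here give no age or sex. Each array held labelled copies of polyA RNA in 1 colour, and the values were the authors' log2 intensities. The labels call the arrays of a group biological replicates, while the design text says that a group's RNA was isolated as a pool, so p-values measure only the spread between these samples, which may be technical.

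P450 enzymes are haem proteins that insert oxygen into small molecules, with electrons from a reductase in the endoplasmic reticulum or from ferredoxin in mitochondria. The Cyp1, Cyp2 and Cyp3 families hold most of the enzymes that oxidise foreign compounds, and many of them are induced in liver when a ligand binds the aryl hydrocarbon receptor (Cyp1 genes), the constitutive androstane receptor (Cyp2b genes) or the pregnane X receptor (Cyp3a genes). The Cyp4 family hydroxylates fatty acids at the chain end, and part of it responds to PPAR alpha. The remaining families mostly make and break down cholesterol, bile acids, steroid hormones and vitamins. In the heart, the Cyp2j subfamily is known for epoxygenases that turn arachidonic acid into epoxides.

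Promoter sequence was looked at because the Cyp1 genes are textbook targets of the aryl hydrocarbon receptor, whose core binding motif is GCGTG. RefSeq windows of 250 bases before the annotated start, build GRCm38.p6, were found for 53 of the 69 genes, matched by gene. Some genes had several windows, and a gene was counted when any of its windows held the feature. The motif GCGTG, on either strand, was held by 14 of the 53 genes (26.4%), against 30.9% of 27025 genes with a window. The motif TATAAA, on either strand, was held by 19 of the 53 (35.8%), against 14.3% of all genes with a window. A CpG-rich window (GC content over 50% and an observed over expected CpG ratio over 0.6) was held by 7 of the 53 P450 genes (13.2%), against 33.2% of all genes. These 7 were Cyp2r1, Cyp4v3, Cyp2s1, Cyp46a1, Cyp51, Cyp20a1 and Cyp26a1. A match describes the letters only.

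The windows of 4 genes are shown, each 5′ to 3′ and ending at the base before the start, with GCGTG or TATAAA, or their reverse complements CACGC and TTTATA, in capitals. Cyp1a1 and Cyp1b1 are shown as receptor targets whose windows held GCGTG. The window of Cyp1a2, the other Cyp1 gene, held TATAAA and no GCGTG and is not shown. Cyp2b9 and Cyp2j5 are shown because their DMA arrays all lay above their DMSO arrays at 48 h. Cyp4a31 did so too on its brightest probe, but no window was found for it. The window of Cyp1a1 is chr9:57697363-57697612 on the plus strand and that of Cyp1b1 is chr17:79715062-79715311 on the minus strand. The window of Cyp2b9 is chr7:26173159-26173408 on the plus strand and that of Cyp2j5 is chr4:96664120-96664369 on the minus strand.
Cyp1a1: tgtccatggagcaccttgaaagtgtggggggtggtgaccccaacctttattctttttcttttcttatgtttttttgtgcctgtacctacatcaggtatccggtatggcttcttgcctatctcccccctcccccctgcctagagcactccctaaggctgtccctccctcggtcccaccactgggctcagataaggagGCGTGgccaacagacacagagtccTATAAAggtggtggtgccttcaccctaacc
Cyp1b1: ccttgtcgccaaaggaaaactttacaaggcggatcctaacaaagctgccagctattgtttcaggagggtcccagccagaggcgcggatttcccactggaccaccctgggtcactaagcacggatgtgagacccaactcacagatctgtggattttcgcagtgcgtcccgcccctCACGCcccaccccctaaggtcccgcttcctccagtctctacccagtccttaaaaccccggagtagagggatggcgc
Cyp2b9: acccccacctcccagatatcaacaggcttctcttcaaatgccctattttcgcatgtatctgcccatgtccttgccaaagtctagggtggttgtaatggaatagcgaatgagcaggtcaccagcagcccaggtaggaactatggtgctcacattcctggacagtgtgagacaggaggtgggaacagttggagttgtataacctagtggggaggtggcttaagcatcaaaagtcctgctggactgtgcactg
Cyp2j5: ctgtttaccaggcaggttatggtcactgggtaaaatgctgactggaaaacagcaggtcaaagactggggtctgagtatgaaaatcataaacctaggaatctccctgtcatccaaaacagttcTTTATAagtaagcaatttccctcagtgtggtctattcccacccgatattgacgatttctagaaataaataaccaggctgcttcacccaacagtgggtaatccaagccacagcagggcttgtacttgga
In Cyp1a1 the GCGTG began 54 bases before the start and the TATAAA 30 bases before it. Cyp1b1 held the GCGTG motif on the other strand, 76 bases before the start, no TATAAA, and 12 CG pairs at a GC content of 58%. Cyp2b9 held neither motif. Cyp2j5 held the TATAAA motif on the other strand, 128 bases before the start, and no GCGTG.

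Array quality touched the P450 values as follows. Array medians were 6.03 to 6.04 at 24 h and 6.35 to 6.36 at 48 h, so the times were scaled apart and levels were compared with the median of the same array only. One array, DMA 24 h replicate 3, stood apart: its r with the median of its time's other arrays was 0.742, against 0.927 to 0.963 for the remaining 11, and it gave the highest or lowest of the 24 h values for 64.4% of 59 P450 genes with 6 values (73.6% of all genes tested). DMA 48 h replicate 3, whose r of 0.940 lay within that range, did so for 45.9% of 61 P450 genes (58.6% of all genes), the largest share among the 48 h arrays. Of the cardiomyocyte markers, Actc1 had a value on 0 arrays and Tnni3, Myl2 and Pln on 1 each, which was DMA 24 h replicate 3, and Myh6 and Ryr2 were the 2 of 9 listed on the array that could be tested. Hepatocyte markers, which matter because liver is the main P450 organ, were above the array median on every array for 0 of 8 and on no array for 3 of 8.

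A smaller share of P450 genes than of all genes had bright probes in the heart. Of the 69, 14 (20.3%) lay above the array median on every array with a value, 23 on some arrays and 32 on none, against 6906 of 17611 genes tested (39.2%) above it on every array. No detection call came with the values, so a gene under the median was not called absent, and because probes differ in brightness the order of genes says nothing of their mRNA amounts. The 14 were Cyp2d34, Cyp4b1, Cyp2d13, Cyp27a1, Cyp2d9, Cyp2e1, Cyp1b1, Cyp4v3, Cyp2j12, Cyp4f16, Cyp4f13, Cyp2r1, Cyp2a4 and Cyp2b19. The first 6 of these also lay above the 75% quantile of every array.

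**Figure D1:**
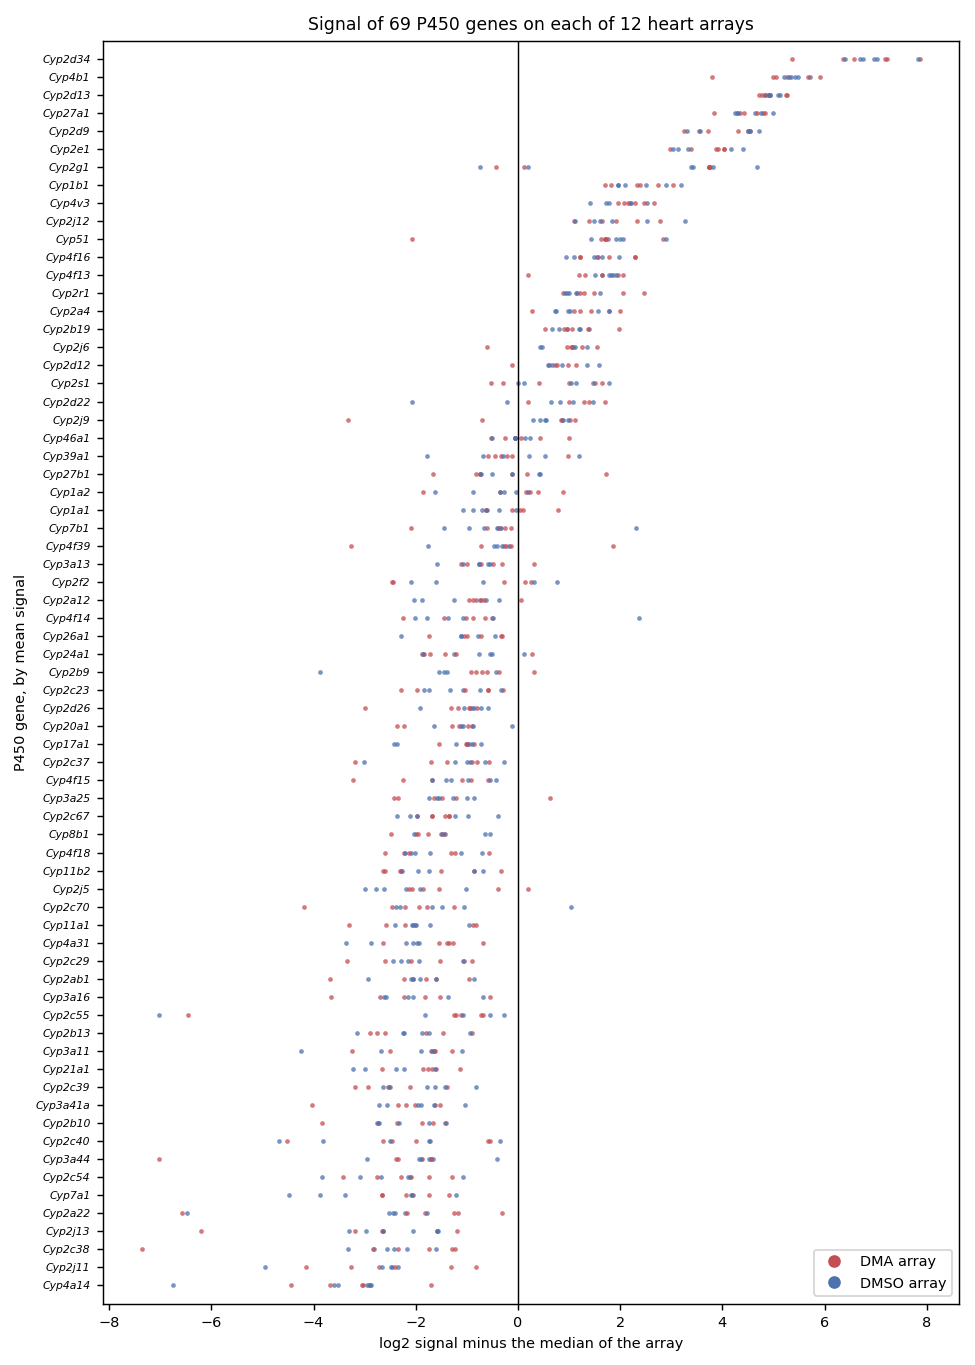
Log2 signal minus the median of the same array (x axis) for the 69 P450 genes (y axis, sorted by mean), 1 point per array, with DMA arrays in red and DMSO arrays in blue; the vertical line is the array median. 14 genes have every point to the right of the line and 32 have every point to its left, and DMA and DMSO points mix in most rows.

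By family, 8 of 35 Cyp2 genes, 4 of 10 Cyp4 genes, 1 of 3 Cyp1 genes, 0 of 6 Cyp3 genes and 1 of 15 genes of the remaining families (14 for sterols, bile acids, steroids and vitamins, and Cyp20a1, of unknown substrate) were above the median on every array. The Cyp4 genes of this kind, fatty acid hydroxylases, were Cyp4b1 (9.84 to 12.04 log2 over 12 arrays), Cyp4v3, Cyp4f13 and Cyp4f16. The mitochondrial sterol side-chain hydroxylase Cyp27a1 read 9.87 to 11.35. Cyp2e1, which oxidises ethanol, read 9.34 to 10.52 on 11 arrays, and Cyp1b1, an oestradiol hydroxylase, read 7.75 to 9.39 on 12. Cyp2r1, which hydroxylates vitamin D in its activation, averaged 7.55.

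Among the 23 genes above the median on some arrays, 6 were above it on at least 10, namely Cyp51 (11 of 12 arrays), Cyp2g1, Cyp2j9 and Cyp2s1 (10 of 12 each), and Cyp2d12 and Cyp2j6 (10 of 11 each). Cyp2d22 was above it on 9 of 11, Cyp1a2 and the brain cholesterol hydroxylase Cyp46a1 on 5 of 12, the vitamin D hydroxylase Cyp27b1 and Cyp39a1 on 4 of 12, Cyp2f2, a lung enzyme, on 4 of 10, Cyp1a1 on 3 of 12 and Cyp24a1, which breaks down vitamin D, on 2 of 12. The other 9, Cyp2a12, Cyp2b9, Cyp2c70, Cyp2j5, Cyp3a13, Cyp3a25, Cyp4f14, Cyp4f39 and Cyp7b1, were above it on 1 array each. The 32 never above it included every Cyp2c gene but Cyp2c70 (Cyp2c23, Cyp2c29, Cyp2c37, Cyp2c38, Cyp2c39, Cyp2c40, Cyp2c54, Cyp2c55 and Cyp2c67), a subfamily known for oxidising drugs and arachidonic acid in liver and kidney. They also included the bile acid genes Cyp7a1 and Cyp8b1, the steroid hormone genes Cyp11a1, Cyp11b2, Cyp17a1 and Cyp21a1, and Cyp20a1 and the retinoic acid hydroxylase Cyp26a1. The rest were Cyp2a22, Cyp2ab1, Cyp2b10, Cyp2b13, Cyp2d26, Cyp2j11, Cyp2j13, Cyp3a11, Cyp3a16, Cyp3a41a, Cyp3a44, Cyp4a14, Cyp4a31, Cyp4f15 and Cyp4f18.

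The Cyp2d genes are a cluster of close copies, and probe sequences were not used here, so signal of one on the probe of another cannot be told apart. Cyp2d34 read 11.41 to 13.91, Cyp2d13, which RefSeq lists as a transcribed pseudogene, 10.74 to 11.61, and Cyp2d9 9.28 to 10.91. A single probe assigned to 6 Cyp2d genes together, which was left out of the 69, averaged 6.67. The other probe of Cyp2d9 averaged 4.16, under the median, and that of Cyp2r1 averaged 4.35, so their place above the median belongs to 1 of 2 probes. The second probe of Cyp4v3 averaged 7.87 and kept it above. That of Cyp2j6, a gene above the median on 10 of 11 arrays by its brightest probe, averaged 5.28, under the median.

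The Cyp3 family, the main drug oxidisers of liver, lay mostly under the median, with 4 of 6 genes under it on all arrays and 2, Cyp3a13 and Cyp3a25, above it on 1 array each. Among the steroid hormone genes, aldosterone synthase (Cyp11b2) and the side-chain cleavage enzyme Cyp11a1 were under it on all 12 arrays; Cyp11a1 read 3.06 to 5.48. Of the adrenal cortex markers, Star and Mc2r were above the median on 0 arrays, while Nr5a1 was above it on all 11 arrays with a value. The lanosterol demethylase Cyp51, of cholesterol synthesis, was above the median on 11 of 12 arrays, the exception being DMA 24 h replicate 3.

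The promoter features were also counted by level class. Among genes with a window, TATAAA was held by 3 of 12 above the median on every array (25%). It was held by 5 of 17 above the median on some arrays (29.4%) and 11 of 24 above it on none (45.8%). GCGTG was held by 4 of 12, 6 of 17 and 4 of 24. A CpG-rich window was held by 2 of 12, 3 of 17 and 2 of 24. No test was made of these shares.

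At 24 h no P450 gene passed the test between DMA and DMSO hearts. With limma and Benjamini-Hochberg adjustment over 35401 probes, 0 probes (0%) passed an adjusted p of 0.05 and the smallest adjusted p of a P450 gene was 0.871. Of the 69 genes, 38 had a positive and 31 a negative difference of DMA minus DMSO, with a median of 0.03 log2 and a range of -2.43 to 2.37; over the 17611 genes tested the median was 0.09, with 9717 positive. An unadjusted p under 0.05 was met by 2 of 69, against 496 of 17611 genes tested (2.82%), and by 1 to 4 of them when 1 array was left out. All DMA arrays lay above all DMSO arrays for 0 of the 69 (4.42% of all genes) and below for 2 of the 69 (3.29%). The counts of 2 are near the share among all genes.

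Of the 2 genes with an unadjusted p under 0.05, Cyp2d22, a Cyp2d gene, read 7.03, 7.42 and 7.75 on the 24 h DMA arrays and 7.10, 3.96 and 5.81 on the DMSO arrays. The groups overlapped, and the DMSO arrays spread widely; the difference was 1.77 ± 0.70 (SE, n = 3 each, unadjusted p = 0.0283, adjusted p = 0.871 from limma), and 0.94 without DMSO replicate 2. Cyp3a44, a liver steroid oxidiser, read 4.33, -1 and 3.65 in DMA hearts and 4.36, 5.62 and 4.30 in DMSO hearts. Its difference of -2.43 ± 1.09 (SE, n = 3 each, limma unadjusted p = 0.0472) was -0.77 without DMA replicate 2, whose value is the array's lowest.

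The 2 genes with all DMA arrays lower at 24 h were Cyp2c70, the mouse enzyme that makes muricholic acids, and Cyp20a1, a P450 of unknown substrate. Cyp2c70 read 4.09, 3.81 and 4.27 in DMA hearts and 4.35, 4.98 and 7.08 in DMSO hearts. Most of its difference of -1.41 ± 0.78 (SE, n = 3 each) came from DMSO replicate 3, without which it was -0.61. Cyp20a1 read 3.66, 4.87 and 4.75 in DMA hearts and, on the 2 DMSO arrays with a value, 4.96 and 4.93; its difference was -0.52 ± 0.59 (SE) and -0.13 without DMA replicate 1. Both genes were mostly or wholly under the array median. Over the 8 hepatocyte markers 4 were positive and 4 negative at 24 h. The mean of those with a value was 4.46 to 5.47 on DMA arrays and 5.11 to 5.72 on DMSO arrays. Apoa1 and Fga had no value on DMSO replicate 1, so the mean of that array left them out. The part of the list in these values was not tested.

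At 48 h no P450 gene passed the test either. Again 0 of 35401 probes (0%) passed the adjusted p, and the smallest adjusted p of a P450 gene was 1. Differences were positive for 37 and negative for 32 of the 69 genes, with a median of 0.03 log2 and a range of -1.12 to 1.61, against a median of 0.01 over all genes tested. An unadjusted p under 0.05 was met by 2 of 69, against 180 of all genes (1.02%). Among the 48 h arrays, this count was 6 when DMSO replicate 2 was left out, 4 when DMA replicate 1 was and 0 when DMA replicate 3 was. All DMA arrays were higher for 3 of the 69 (3.95% of all genes) and lower for 2 of the 69 (2.33%). In the same contrast all 8 endothelial markers had negative differences, with a median of -0.56 and 0 of 8 past the test. List means were 7.48 to 8.82 on DMA arrays and 8.42 to 9.15 on DMSO arrays. Kdr, Erg and Flt1 had every DMA array lower, and the others overlapped. Kdr and Flt1 had no value on DMSO replicate 2, so the mean of that array left them out. At 24 h 5 of the 8 were positive and 3 negative, with a median of 0.64. Tie1 differed by -0.0015. Pecam1 read 10.08, 8.215 and 4.99 in DMA hearts, the last on replicate 3, and 10.21, 8.05 and 7.41 in DMSO hearts. Cdh5 and Flt1 were above the array median on 0 arrays. The part of these markers in the P450 values was not tested.

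Cyp2b9, a steroid-oxidising relative of the phenobarbital-induced Cyp2b10, read 5.99, 5.43 and 5.65 in 48 h DMA hearts and 4.97, 4.80 and 2.47 in DMSO hearts. Every DMA array was higher, and the lowest value was that of DMSO replicate 3. The difference was 1.61 ± 0.65 (SE, n = 3 each, limma unadjusted p = 0.0319, adjusted p = 1), and 0.81 without that array. At 24 h Cyp2b9 read 5.22, 5.42 and 6.35 in DMA hearts and 4.59 and 5.60 on the 2 DMSO arrays with a value, with overlap. Cyp2b10 itself, the usual readout of the constitutive androstane receptor, differed by 0.15 ± 0.63 at 24 h and -0.50 ± 0.71 at 48 h (SE) and was under the array median on every array with a value.

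Cyp4a31, of the fatty acid hydroxylases, read 4.96, 5.09 and 5.67 on its brightest probe in 48 h DMA hearts and 4.41, 4.15 and 3.48 in DMSO hearts. This was a difference of 1.23 ± 0.50 (SE, n = 3 each, limma unadjusted p = 0.0312, adjusted p = 1). Its other 2 probes ran the other way at 48 h, at -0.71 and -0.54, so the probes of the gene disagree. A probe assigned to both Cyp4a31 and Cyp4a10, which was left out of the 69, was bright, with 10.16, 10 and 10.54 in 48 h DMA hearts and 9.81, 9.86 and 10.07 in DMSO hearts, which overlap. Cyp4a14, the PPAR alpha target, read 3.32, 2.68 and 3.30 in DMA hearts and 3.46, 2.83 and -0.40 in DMSO hearts; its 48 h difference of 1.14 ± 0.91 (SE) was -0.04 without DMSO replicate 3. Cyp4a10 had no single-symbol probe.

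The 6 Cyp2j genes had differences of both signs at each time. Cyp2j5 read 4.82, 4.22 and 4.28 in 48 h DMA hearts and 3.73, 3.36 and 3.57 in DMSO hearts, with no overlap and a difference of 0.89 ± 0.52 (SE, n = 3 each). At 24 h it read 5.63, 4.17 and 6.24 in DMA hearts and 4.11, 5.01 and 3.84 in DMSO hearts, with overlap and a difference of 1.03 ± 0.52 (SE). It was above the array median on 1 array, DMA 24 h replicate 3. Cyp2j12, above the median on every array, differed by -0.51 at 24 h and 0.30 at 48 h. Cyp2j6 differed by -0.19 and 0.06 on its brightest probe and by -0.12 and -0.71 on its second. Cyp2j9 differed by -0.999 at 24 h, where DMA replicate 3 read 2.71 beside 7.06 and 7.16, and by -0.27 at 48 h. Cyp2j11 differed by 0.35 and 1.01, and both signs turned when 1 array was left out. Cyp2j13 differed by -1.51 at 24 h, where DMA replicate 1 read -0.17 beside 4.44 and 2.85, and by -0.23 without that array; at 48 h it differed by 0.40. None of the 6 passed the test at either time.

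The genes lower on every 48 h DMA array were Cyp11b2 and Cyp2c55. Cyp11b2 read 3.71, 4.05 and 3.76 in DMA hearts and 5.66, 4.40 and 4.62 in DMSO hearts, a difference of -1.05 ± 0.50 (SE, n = 3 each, limma unadjusted p = 0.0579), and -0.67 without DMSO replicate 1. At 24 h it ran the other way, with 4.53, 5.17 and 5.70 in DMA hearts and 3.76, 5.16 and 3.74 in DMSO hearts, and these overlapped. The adrenal cortex markers with a value averaged 4.82 to 5.18 on 48 h DMA arrays and 5.21 to 5.59 on DMSO arrays. Mc2r, a dim gene, had no value on DMSO replicate 2, so the mean of that array left it out. Of the 4 markers 2 were negative, Hsd3b1 (-1.23) and Mc2r (-0.59), while Star (0.31) and Nr5a1 (0.41) were positive. The part of these markers was not tested. Cyp2c55 read 5.14, 5.25 and 5.11 in 48 h DMA hearts and 5.27 and 6.08 on the 2 DMSO arrays with a value. Its difference of -0.51 ± 1.96 (SE) was well inside its error, since the fit shares the spread with 24 h, where 1 array of each group read -0.43 (DMA) and -1 (DMSO) and the others 4.21 to 5.49.

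**Figure D2:**
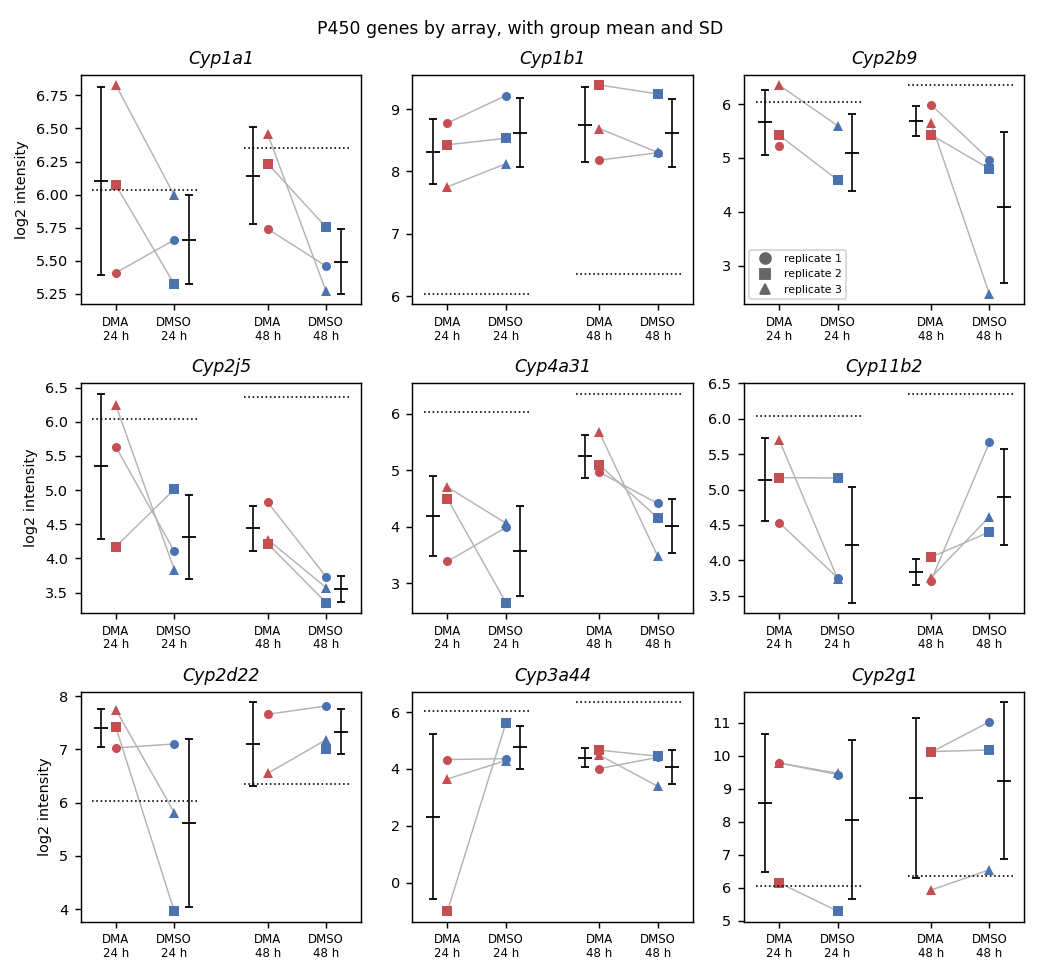
Log2 intensity (y axis) of 9 P450 genes on each array, with DMA left of DMSO at 24 h and at 48 h; grey lines join arrays with the same replicate number, black marks are the group mean and SD and dotted lines the mean array median. Cyp2b9, Cyp2j5 and Cyp4a31 have all DMA points above the DMSO points at 48 h and Cyp11b2 has them below, while Cyp2g1 differs more between replicate numbers than between treatments.

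The Cyp1 genes, the readout of the aryl hydrocarbon receptor, did not pass the test. Cyp1a1 read 5.41, 6.07 and 6.83 in 24 h DMA hearts and 5.66, 5.32 and 5.995 in DMSO hearts, then 5.74, 6.23 and 6.46 in 48 h DMA hearts and 5.46, 5.75 and 5.27 in DMSO hearts. The groups overlapped at both times; at 48 h a single DMSO value, 5.75, lay just above the lowest DMA value. Between arrays of the same replicate number, Cyp1a1 was higher in DMA hearts in all 3 pairs at 48 h, by 0.28, 0.48 and 1.19, and in 2 of 3 at 24 h, at -0.25, 0.75 and 0.83. The differences were 0.45 ± 0.41 at 24 h and 0.65 ± 0.41 at 48 h (SE, n = 3 each), and the first was 0.08 without DMA 24 h replicate 3. Cyp1a2 differed by 0.79 ± 0.66 at 24 h and 0.02 ± 0.66 at 48 h. Cyp1b1 read 8.78, 8.43 and 7.75 in 24 h DMA hearts and 9.22, 8.53 and 8.12 in DMSO hearts, a difference of -0.30 ± 0.47 (SE) with all 3 pairs lower in DMA hearts, at -0.44, -0.10 and -0.37, and at 48 h 8.18, 9.39 and 8.69 in DMA hearts and 8.30, 9.24 and 8.31 in DMSO hearts, a difference of 0.14 ± 0.47 (SE).

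The receptor Ahr averaged 7.58 over the arrays and differed by -0.06 at 24 h and -0.33 at 48 h, and its partner Arnt, above the median on 12 arrays, by -0.24 and 0.18. Of the receptor's other target genes, Ahrr differed by 1.02 at 24 h and -0.49 at 48 h, and Tiparp by -0.30 and 0.10. Ahrr read 7.85, 8.12 and 10.76 in 24 h DMA hearts, so its difference rested on replicate 3, and 7.87 and 7.92 in DMSO hearts. The pregnane X receptor gene Nr1i2 and the constitutive androstane receptor gene Nr1i3 were above the array median on 0 arrays. Ppara was above it on 10 of 11 arrays and differed by 1.37 ± 0.72 at 24 h and 0.42 ± 0.64 at 48 h (SE). At 24 h Ppara read 7.51, 6.09 and 8.44 in DMA hearts, the last on replicate 3. On the 2 DMSO arrays with a value it read 5.65 and 6.31, so the groups overlapped.

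Of the 34 listed regulators of P450 genes, 31 were on the array and tested, 11 of them above the median on every array, and 0 passed the adjusted p at either time. Their median difference was -0.18 at 24 h, with 12 positive and 19 negative, and 0.0045 at 48 h, with 16 positive and 15 negative. An unadjusted p under 0.05 was met by 1 of the 31 at 24 h, near the 2.82% of all genes, and by 0 at 48 h. That gene, named after its value was seen, was Cebpa, a liver and fat transcription factor that was above the median on 0 arrays. Of the 23 listed electron partners and haem enzymes, 19 were on the array and 17 tested, 12 above the median on every array; their median differences were -0.04 and -0.09, and 0 had an unadjusted p under 0.05. The P450 reductase gene Por had no single-symbol probe in the table used here.

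By family, positive and negative differences stood side by side at both times. Of the 35 Cyp2 genes 19 were positive at 24 h and 18 at 48 h, with medians of 0.03 and 0.00086. Of the 6 Cyp3 genes 4 and 3 were positive, and of the 10 Cyp4 genes 5 and 6. Cyp3a11, the usual readout of the pregnane X receptor, differed by 0.50 ± 0.77 at 24 h and -0.08 ± 0.77 at 48 h (SE). Of the 15 genes of the remaining families, Cyp20a1 included, 8 and 7 were positive, with medians of 0.0088 and -0.18. Among these, Cyp51 differed by -1.30 ± 0.85 at 24 h (SE) on its brightest probe and by 0.26 on its second. The difference on the brightest probe rested on DMA replicate 3, which read 3.96 beside 7.66 and 7.79, and was -0.04 without it. The second probe leaned on the same array in the other direction. There DMA replicate 3 read 9.82 beside 6.17 and 6.46, and the DMSO arrays read 6.02, 6.99 and 8.66. Cyp27a1 differed by -0.23 ± 0.36 at 24 h and 0.13 ± 0.36 at 48 h (SE), and each sign turned when 1 array was left out.

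The 14 genes above the median on every array had a narrower range of differences than the dim ones. This is partly set by how the class was chosen, and the classes differ in size. A gene with a low value on any array left the class, as Cyp51 did with 3.96 on DMA 24 h replicate 3. Differences of the 14 ran from -0.66 to 0.54 at 24 h and from -0.32 to 0.41 at 48 h. Those of the 32 genes above the median on no array ran from -2.43 to 2.37 and from -1.12 to 1.23. At 24 h 5 of the 14 were positive, with a median of -0.14, and at 48 h 12 of 14, with a median of 0.14. The signs of all genes above the median on every array were not counted, so these counts stand without a comparison. The second count was 9 of 14 without DMA 48 h replicate 3, without DMSO replicate 1, without DMSO replicate 3, or with the trend along the probe order removed. The first was 8 of 14 with array weights. Cyp4v3, whose second probe had all DMA arrays higher at 48 h, differed on its 2 probes by 0.41 and 0.53 (SE 0.37 and 0.36). For Cyp2d34 the groups read 13.91, 12.39 and 11.41 in 24 h DMA hearts and 13.87, 12.78 and 13.06 in DMSO hearts. For Cyp2e1 the differences were -0.05 ± 0.53 at 24 h and 0.15 ± 0.47 at 48 h (SE).

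**Figure D3:**
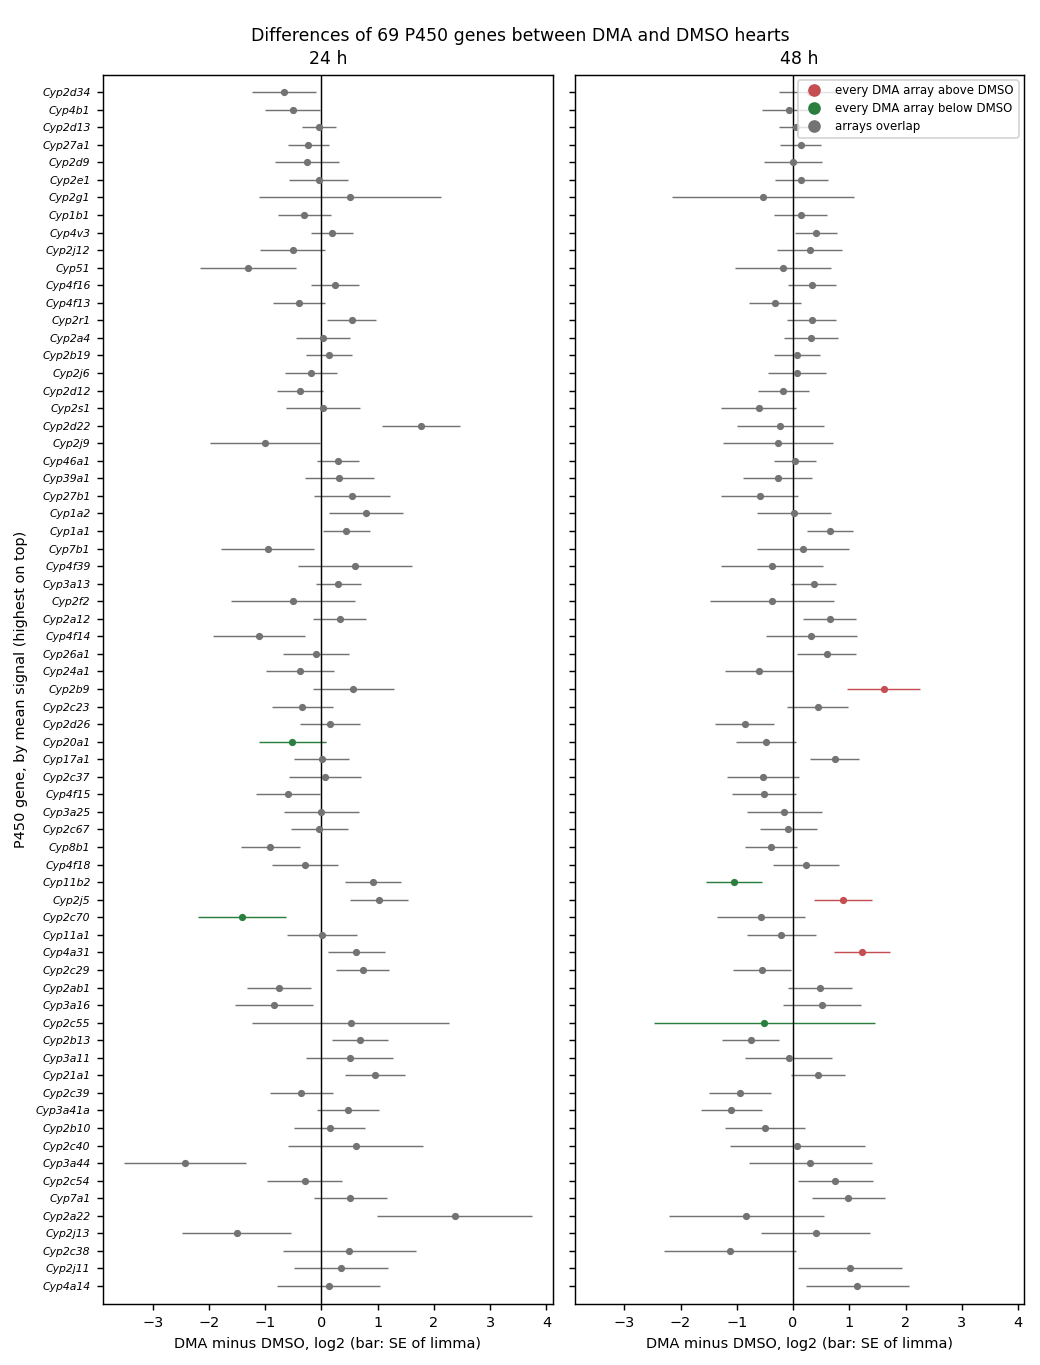
DMA minus DMSO in log2 (x axis) with its standard error from limma for the 69 P450 genes (y axis, sorted by mean signal, brightest probe on top) at 24 h (left) and 48 h (right). Red marks the 3 genes with every DMA array higher, all at 48 h, and green the 2 genes at each time with every DMA array lower; the 14 genes above the median on every array lie between -0.66 and 0.54.

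The difference between the times was tested directly and no P450 gene passed, with 0 of 35401 probes (0%) under the adjusted p and a smallest adjusted p of 0.999 for a P450 gene. An unadjusted p under 0.05 was met by 1 of 69 genes, against 265 of all genes (1.5%). This was Cyp11b2, with a 48 h minus 24 h effect of -1.97 ± 0.71 (SE, limma unadjusted p = 0.0173). With DMA replicate 3 left out at both times it was -1.64 (limma unadjusted p = 0.0613), and with the trend along the probe order removed -1.42 (limma unadjusted p = 0.0622), and then 0 of the 69 met this p. The next genes with a negative value were Cyp3a41a (-1.57), Cyp2b13 (-1.44), Cyp2d22 (-2.00), Cyp2c29 (-1.29) and Cyp2a22 (-3.21). Those with a positive value were Cyp3a44 (2.74), Cyp2ab1 (1.23), Cyp3a16 (1.36), Cyp2j13 (1.91), Cyp4f14 (1.44) and Cyp2d34 (0.97). Several rested on single values, low or high. Cyp2a22 read 4.22, 4.79 and 5.74 in 24 h DMA hearts and 3.81, 4.24 and -0.44 in DMSO hearts, and its 24 h difference of 2.37 was 0.887 without the last. At 48 h its DMA replicate 1 read -0.22. Without that array its 48 h difference of -0.835 was 0.799 and its 48 h minus 24 h effect -1.58. Both low values were the lowest of their arrays. Cyp4f14 read 5.16, 5.53 and 4.60 in 24 h DMA hearts and 5.55, 8.41 and 4.67 in DMSO hearts, and its 24 h difference of -1.11 was -0.0154 without DMSO replicate 2. On the second probe of Cyp4f14 the 24 h difference was -0.21 and the 48 h minus 24 h effect 0.63. The 24 h difference of Cyp2d34 was -0.66, and -0.0842 without DMA replicate 3, and that of Cyp2ab1 was -0.753, and -0.233 without DMSO replicate 2. The 2 probes of Cyp2b13 ran opposite ways at both times, at 0.69 and -0.95 at 24 h and -0.76 and 1.02 at 48 h.

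Part of the spread followed the replicate number and not the treatment. Cyp2g1, known from olfactory mucosa, read 9.77, 6.15 and 9.78 in 24 h DMA hearts and 9.43, 5.29 and 9.47 in DMSO hearts, then 10.10, 10.12 and 5.92 in 48 h DMA hearts and 11.02, 10.17 and 6.54 in DMSO hearts. It was low only on the arrays of replicate 2 at 24 h and of replicate 3 at 48 h, in both treatments. Cyp2d9 read 10.91, 9.90 and 10.86 in 48 h DMA hearts and 10.89, 9.91 and 10.86 in DMSO hearts, so the 3 differences within a number were 0.019, -0.016 and -0.00045. Among P450 genes with 6 values, the 3 numbers stood in the same order in DMA and DMSO hearts for 14 of 59 at 24 h (23.7%, against 22.6% of all genes) and for 25 of 61 at 48 h (41%, against 33.8%). Within numbers, the DMA array was higher in every pair for 5 of 59 P450 genes at 24 h (8.47%, against 12.4% of all genes) and for 11 of 61 at 48 h (18%, against 15.1%). It was lower in every pair for 6 of 59 at 24 h (10.2%, against 9.48%) and for 8 of 61 at 48 h (13.1%, against 9.77%). The 5 at 24 h were Cyp11b2, Cyp2a22, Cyp2c29, Cyp2g1 and Cyp3a41a, and the 6 were Cyp1b1, Cyp2c70, Cyp2d12, Cyp3a16, Cyp3a44 and Cyp4f14. The 11 at 48 h were Cyp1a1, Cyp2ab1, Cyp2b9, Cyp2c54, Cyp2d34, Cyp2j5, Cyp2r1, Cyp3a13, Cyp4a31, Cyp4f16 and Cyp4v3, and the 8 were Cyp11b2, Cyp27b1, Cyp2d26, Cyp2g1, Cyp39a1, Cyp3a41a, Cyp4f13 and Cyp51. Cyp11b2, Cyp2g1 and Cyp3a41a were thus higher in every pair at 24 h and lower in every pair at 48 h. The share of all genes that did so was not counted, and none of these genes passed the test between the times. For Cyp11b2 the replicate 2 pair at 24 h differed by only 0.0036. With the replicate number as a block, no P450 gene passed the adjusted p.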

How the data were processed

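Values were the log2 intensities that the authors deposited for 36227 probes on 12 arrays of 1 colour, with Cy5 as the dye per the labels' protocols; background correction and normalization are not given in the sources used here. Between 322 and 3997 values per array were missing. Symbols came from the platform annotation: 21615 probes had 1, 681 several and 13931 none. Probes with at least 2 values in each of the 4 groups (35401) went into limma 3.58.1 under R 4.3.3 (functions lmFit and eBayes, a term per group, no covariate), with Benjamini-Hochberg adjustment over all of them and a threshold of 0.05; the code was tested on simulated data. Tables and figures used Python 3.11.15 and matplotlib 3.10.9. The number of arrays limits the precision.

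The members, the lists and the tests were chosen with earlier results of these data known. Named genes were those above the median on every array (with at least 8 values), up to 6 per direction by unadjusted p among genes whose groups did not overlap, up to 6 per direction by p for the difference between the times, and the Cyp1, Cyp2j and a few inducible genes whatever their values. Values of Cyp2g1, Cyp51 and Cyp11a1 were added after they were seen. All 69 genes matched RefSeq. Same-numbered DMA and DMSO arrays deviated together (r of 0.190, 0.105 and 0.113 at 24 h and 0.335, 0.310 and 0.276 at 48 h), which comes from the values, not the labels. Printed fits are without a block, except where the replicate block, an alternative, is named. Alternatives were a replicate block, array weights, quantile normalization, removal of the trend along the probe order, other filters and probes, and leaving out arrays. Of the marker lists of 9 cell types, 0 genes passed the adjusted p.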

Additional observations from a re-analysis of the deposited data

How the results depend on the processing

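No P450 gene passed the adjusted p under any alternative, the replicate block included, at 24 h, at 48 h or between the times. Over all probes, leaving out 1 array gave 0 to 14 calls at 24 h (14 when replicate 2 of DMA at 24 h was left out and 9 when replicate 1 was), 0 to 1 at 48 h and 0 to 4 between the times, and 3 at 48 h with DMA replicate 3 left out at both times. The median difference of the 69 genes ran from -0.041 to 0.206 at 24 h and from -0.02 to 0.106 at 48 h when 1 array was left out. The number of P450 genes above the median on every array was 6 against the 75% quantile, 12 by the dimmest probe, 20 on at least 10 arrays, 14 to 16 with 1 array left out and, chosen after seeing the data, 19 without DMA replicate 3 at both times. The sign of a difference was often unstable, and the cause was not tested: of the 69 genes, 41 at 24 h and 37 at 48 h changed sign when some array of that time was left out, 25 and 17 with DMA replicate 3 left out at both times, 25 and 10 with array weights, 4 and 7 with the trend along the probe order removed, and 2 and 1 with the replicate block. Values are given for the genes that the naming rule took for a difference or whatever their values, and not for those it took for their level alone. With array weights the changed ones among these were Cyp1b1 0.112 at 24 h, Cyp2d22 0.0157 at 48 h, Cyp2d34 0.0918 at 24 h, Cyp2e1 0.0829 at 24 h, Cyp2j11 -0.495 at 24 h, Cyp2j6 0.363 at 24 h, Cyp2j9 0.435 at 24 h, Cyp3a11 -0.0346 at 24 h, Cyp3a16 -0.0198 at 48 h, Cyp4a14 -0.275 at 24 h. With DMA replicate 3 left out at both times they were Cyp2b10 0.227 at 48 h, Cyp2c55 -0.457 at 24 h, Cyp2d22 0.326 at 48 h, Cyp2j11 -0.295 at 24 h, Cyp2j6 0.34 at 24 h, Cyp2j9 0.467 at 24 h, Cyp2j9 0.248 at 48 h, Cyp3a16 -0.169 at 48 h, Cyp4a14 -0.531 at 24 h, Cyp4f14 -0.00603 at 48 h. With the trend along the probe order removed they were Cyp2e1 -0.0666 at 48 h, Cyp2j9 0.0843 at 48 h, Cyp4a14 -0.0571 at 24 h, and with the replicate block as the pairing Cyp2e1 0.17 at 24 h. Leaving out 1 array at a time, the ranges that crossed 0 among these genes were Cyp1a2 at 48 h -0.378 to 0.74, Cyp1b1 at 48 h -0.182 to 0.448, Cyp2a22 at 48 h -1.9 to 0.799, Cyp2b10 at 24 h -0.148 to 0.482, Cyp2b10 at 48 h -0.977 to 0.227, Cyp2c55 at 24 h -1.43 to 2.44, Cyp2c70 at 48 h -1.26 to 0.209, Cyp2d22 at 48 h -0.782 to 0.326, Cyp2e1 at 24 h -0.578 to 0.483. Further ones were Cyp2e1 at 48 h -0.0568 to 0.507, Cyp2j11 at 24 h -0.295 to 1.37, Cyp2j11 at 48 h -0.135 to 2.15, Cyp2j12 at 24 h -0.995 to 0.0824, Cyp2j12 at 48 h -0.0141 to 0.689, Cyp2j13 at 48 h -0.0905 to 0.654, Cyp2j6 at 24 h -0.477 to 0.34, Cyp2j6 at 48 h -0.0687 to 0.179, Cyp2j9 at 24 h -1.76 to 0.467. The remaining ones of this kind were Cyp2j9 at 48 h -0.534 to 0.248, Cyp3a11 at 24 h -0.463 to 1.12, Cyp3a11 at 48 h -0.381 to 0.457, Cyp3a16 at 48 h -0.169 to 1.39, Cyp3a44 at 48 h -0.0385 to 0.494, Cyp4a14 at 24 h -0.531 to 0.838, Cyp4a14 at 48 h -0.0441 to 1.89, Cyp4f14 at 48 h -0.00603 to 0.795. Signal over background could not be judged, since no detection call came with the values.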
